A study of Homo sapiens with 6 samples.

Results

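Metallothioneins are small cysteine-rich proteins that bind zinc, copper and cadmium in the cell. MTF1, the metal-responsive transcription factor, senses free zinc and switches on metallothionein genes and SLC30A1 through short DNA motifs called metal response elements. SLC30A1 (also called ZnT1) is the plasma membrane transporter that moves zinc out of the cell. Metallothionein genes are also known to respond to glucocorticoids, and MT2A is commonly listed among interferon γ response genes. The 8 genes described here are MT2A, MT1E, MT1F, MT1G, MT1M, MT1X, MTF1 and SLC30A1, taken by symbol from the 21462 genes of the count table. They were picked because MT2A was lower in knockout cells while interferon genes were higher, so the fold changes of the 8 genes between the conditions are a description here and carry no p-values.

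RNA was sequenced from A431CT cells (genotype WT) and from Dsg2KO cells (genotype DSG2 KO), with 3 replicates in each condition. A431 is a human epidermoid carcinoma line that serves as a keratinocyte model, and both conditions were grown in DMEM with fetal bovine serum. The Dsg2KO cells came from CRISPR/Cas9 editing, and whether they descend from a single clone is not given in the sources used here. Dsg2 is a desmosomal cadherin, and the comparison asks what changes in the transcriptome when it is lost. The study describes its replicates as biological, and the labels do not say whether these libraries came from separate cultures, so p-values measure only the spread between these libraries. The libraries held between 12845719 and 16255692 counts. Levels are given as CPM (counts after TMM scaling, relative to library size, as given by edgeR), with SD over 3 libraries.

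DSG2, the edited gene, was counted at 323 ± 6.12 CPM in A431CT cells and at 51.9 ± 2.88 CPM in Dsg2KO cells, which left 16.1% of the A431CT level. Of 11 epithelial marker genes, 10 were detected well enough to be tested. The exception was KRT14, a defining keratin of basal keratinocytes, with 0 to 2 counts per library. Of these markers only KRT6A, a keratin of stressed epidermis, passed both thresholds, with a log2 fold change of -1.03, and SFN, KRT18 and KRT8 were at -0.46, 0.35 and 0.31. The summed level of 10 markers of other cell types was from 10.8 to 14.9 CPM in A431CT cells and from 18.1 to 18.5 CPM in Dsg2KO cells. The endothelial genes CDH5 and PECAM1 passed both thresholds in edgeR, CDH5 at a log2 fold change of 0.76 and PECAM1 at 0.54, of which DESeq2 called CDH5 alone. The melanocyte gene PMEL was at 3.66 ± 0.721 CPM in A431CT and 3.62 ± 0.251 CPM in Dsg2KO cells. The means of PTPRC, PDGFRB and ACTA2 were at most 0.511 CPM in either condition, and CD3E, COL1A2, MLANA and ALB were at 0 in every library. The part of these shifts in the metallothionein values was not tested.

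The 6 metallothionein members lie within 75.6 kb on chromosome 16 of GRCh38, from position 56608584 to 56684196, in the order MT2A, MT1E, MT1M, MT1F, MT1G and MT1X. MT1G is on the minus strand and the others are on the plus strand. MTF1 (from 37809574 to 37859592) and SLC30A1 (from 211571568 to 211579161) lie on chromosome 1, both on the minus strand. RefSeq promoter sequence was at hand for 4 of the 8 genes, MT2A, MT1X, SLC30A1 and MTF1. The 250 bases before each transcription start are printed 5′ to 3′ on the strand of the gene (GRCh38.p14). They show how densely the motifs are packed in front of MT2A and MT1X. Capitals mark the core of the metal response element, searched as TGCACNC or TGCGCNC on both strands.
MT2A, chr16:56608334-56608583, plus strand: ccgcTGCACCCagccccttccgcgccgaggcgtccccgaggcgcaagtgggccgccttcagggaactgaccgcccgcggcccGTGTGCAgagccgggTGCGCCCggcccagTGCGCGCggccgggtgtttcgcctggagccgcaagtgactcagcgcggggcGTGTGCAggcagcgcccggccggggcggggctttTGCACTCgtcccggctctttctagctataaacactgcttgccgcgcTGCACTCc
MT1X, chr16:56682220-56682469, plus strand: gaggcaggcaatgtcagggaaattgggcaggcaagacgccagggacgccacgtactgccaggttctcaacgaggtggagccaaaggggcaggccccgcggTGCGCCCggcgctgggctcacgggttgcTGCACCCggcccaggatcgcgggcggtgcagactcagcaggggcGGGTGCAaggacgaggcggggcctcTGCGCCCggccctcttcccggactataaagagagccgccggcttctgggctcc
SLC30A1, chr1:211579162-211579411, minus strand: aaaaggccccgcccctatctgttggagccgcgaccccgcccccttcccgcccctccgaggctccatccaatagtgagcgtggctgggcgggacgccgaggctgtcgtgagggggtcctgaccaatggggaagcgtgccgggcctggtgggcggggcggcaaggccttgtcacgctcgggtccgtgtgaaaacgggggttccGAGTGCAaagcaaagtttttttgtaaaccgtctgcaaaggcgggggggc
MTF1, chr1:37859593-37859842, minus strand: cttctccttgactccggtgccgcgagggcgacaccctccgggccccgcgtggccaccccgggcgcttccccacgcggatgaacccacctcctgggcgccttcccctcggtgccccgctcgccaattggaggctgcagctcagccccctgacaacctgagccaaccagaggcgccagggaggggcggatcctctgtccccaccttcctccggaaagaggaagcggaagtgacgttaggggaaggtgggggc

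MT2A held 7 matches to the core, MT1X held 4, SLC30A1 held 1 and MTF1 held 0. Of 27305 promoters of the same length, 24.7% had at least 1 match, 0.366% had at least 4, and 9 promoters had 7 or more. MT2A and MT1X each had a TATAAA motif on the gene's strand, which ended 24 and 25 bases before the start, and this motif was found on either strand in 11.1% of all promoters. Many matches were not limited to genes with counts, since the promoter of MT1H held 8 and MT1H had no count in any library. The promoters of MT1B and MT4, also without counts, held 3 each. A motif of the interferon-stimulated response element, searched on both strands as a pair of GAAA motifs 2 bases apart, was present in 11 of 26 promoters of interferon-stimulated genes (42.3%) and in 3.07% of all promoters. None of the 4 members' promoters held it. A match to these letters is a description of the sequence and not a mapped binding site.

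**Figure D1:**
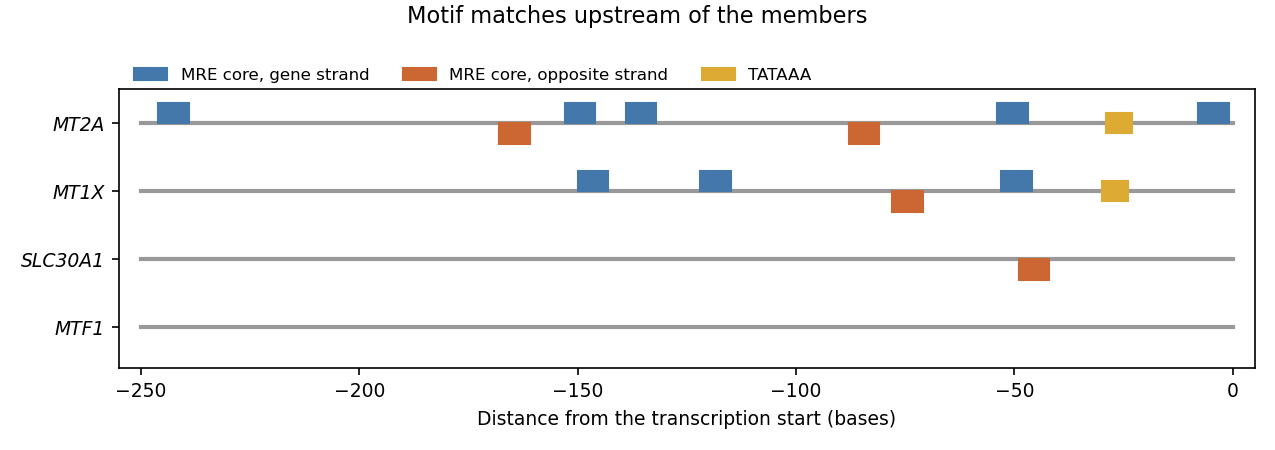
Positions of motif matches in the 250 bases before the transcription start of MT2A, MT1X, SLC30A1 and MTF1 (x axis, distance from the start in bases). Blocks above and below the line are metal response element cores on the gene's strand and on the opposite strand, and the yellow blocks are TATAAA. MT2A carries 7 cores spread over the window, MT1X 4, SLC30A1 1 and MTF1 0.

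Only 4 metallothionein genes of the table had counts in these A431 libraries. MT2A, MT1E, MT1F and MT1X had counts in all 6 libraries, and the other 8 metallothionein genes of the table (MT1A, MT1B, MT1G, MT1H, MT1HL1, MT1M, MT3 and MT4) had 0 counts in every library. For the members MT1G and MT1M, a count of 0 allows up to 3 counts per library, or between 0.183 and 0.236 CPM, and this limit covers counting error only. MT1E and MT2A made up nearly all of the metallothionein counts, with MT1E at 50.3% ± 2.71 and MT2A at 41.7% ± 0.843 (SD, n = 3) in A431CT cells. MT1F added 4.51% ± 1.02 and MT1X 3.54% ± 1.01. In Dsg2KO cells the shares were 47.9% ± 3.61 for MT1E, 43.3% ± 4.93 for MT2A, 5.39% ± 1.73 for MT1F and 3.42% ± 1.05 for MT1X. For each of the 4 genes the shares of the conditions differed by less than 1 SD of the Dsg2KO libraries. For MT2A the difference was more than 1 SD of the A431CT libraries, and its Dsg2KO shares ran from 38.0% to 47.7%. A difference in the make-up of the metallothionein counts was thus not resolved with 3 libraries per condition.

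Summed over the family, metallothionein counts were lower in Dsg2KO cells. The A431CT libraries held 57.4, 63.4 and 63.7 CPM and the Dsg2KO libraries 39.4, 39.9 and 40.7 CPM, so the conditions did not overlap and the lowest A431CT library lay well above the highest Dsg2KO library. The means were 61.5 ± 3.57 and 40.0 ± 0.648 CPM (SD, n = 3). With all metallothionein counts treated as 1 feature in edgeR, the log2 fold change was -0.62 (standard error 0.06). In bulk RNA, fewer cells that express a gene and less RNA of it per cell cannot be told apart.

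**Figure D2:**
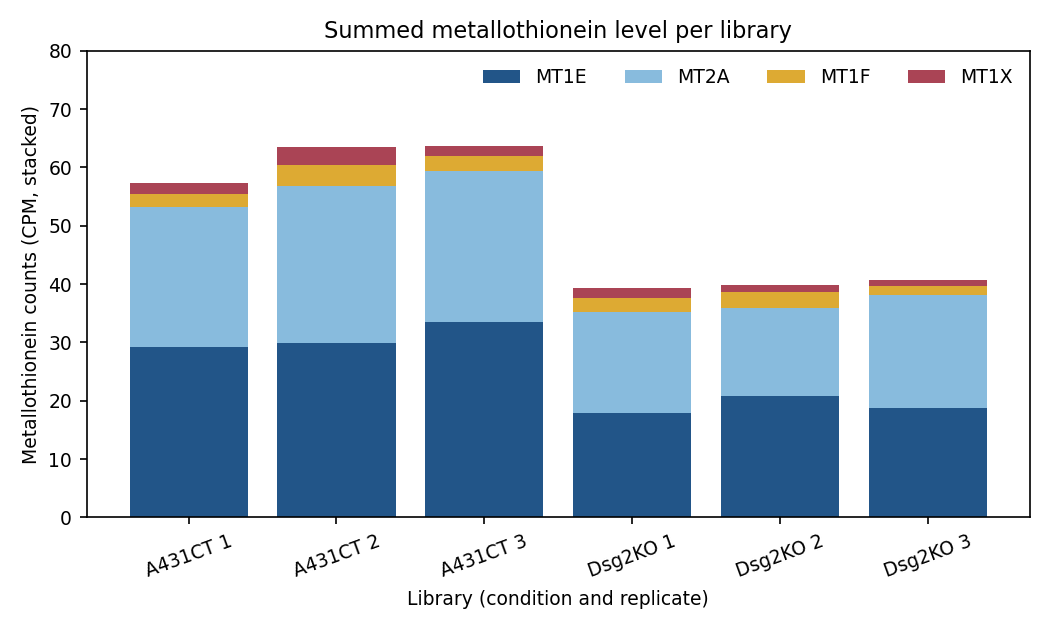
Metallothionein counts in each library (x axis, condition and replicate) as stacked CPM of MT1E, MT2A, MT1F and MT1X (y axis). The 3 A431CT libraries reach 57.4 to 63.7 CPM and the 3 Dsg2KO libraries 39.4 to 40.7 CPM, with similar proportions of the 4 genes.

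MT2A and MT1E were the members past both thresholds used by the study, which ask for an adjusted p-value below 0.05 together with a change by 0.5 or more in either direction on the log2 scale. Both were lower in Dsg2KO cells. This is 2 of the 6 members that passed the low-count filter, where 6.03% of all 12857 genes tested were called, 3.03% as lower and 2.99% as higher. The members were chosen on this contrast, so nothing is read from the difference between these shares. The median log2 fold change of the 6 members was -0.47, and that of all genes tested was -0.0048. The conditions did not overlap for 3 of the 6 members, against 42.6% of all genes tested. By the adjusted p-value alone, which 29.6% of all genes passed, MTF1 joined MT2A and MT1E.

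MT2A, the most widely expressed human metallothionein, had 24.1, 26.9 and 26.0 CPM in A431CT cells and 17.4, 15.2 and 19.4 CPM in Dsg2KO cells. Every Dsg2KO library was below every A431CT library. The means were 25.6 ± 1.44 and 17.3 ± 2.12 CPM (SD, n = 3), which put Dsg2KO cells at 67.5% of the A431CT level. The log2 fold change was -0.57 (standard error 0.10), and without Dsg2KO replicate 2, the lowest library, it was -0.48, short of the fold change threshold. Each library gave it from 248 to 365 raw counts, and 37.7% of the tested genes had a lower mean CPM.

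MT1E, an MT1 isoform next to MT2A in the cluster, followed the same pattern. Its levels were 29.2, 30.0 and 33.5 CPM in A431CT cells and 17.9, 20.8 and 18.8 CPM in Dsg2KO cells, again with no overlap. The means were 30.9 ± 2.26 and 19.2 ± 1.48 CPM (SD, n = 3), or 62.0% of the A431CT level. The log2 fold change was -0.69 (standard error 0.08), and with any 1 library left out it stayed between -0.75 and -0.63.

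The weakly expressed isoforms were measured with much less precision. MT1F had 2.20, 3.61 and 2.56 CPM in A431CT cells and 2.28, 2.75 and 1.42 CPM in Dsg2KO cells. These values rest on 23 to 49 counts per library and overlap between the conditions. The log2 fold change was -0.38, with a standard error of 0.30. MT1X had 1.89, 2.95 and 1.70 CPM in A431CT cells and 1.81, 1.22 and 1.05 CPM in Dsg2KO cells. Its 17 to 40 counts per library also overlapped between the conditions. The log2 fold change of MT1X was -0.69, the size seen for MT1E, but with a standard error of 0.33. Without A431CT replicate 2, the highest library for both genes, the log2 fold changes were -0.15 for MT1F and -0.40 for MT1X. A difference in either isoform was not detectable in these libraries.

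**Figure D3:**
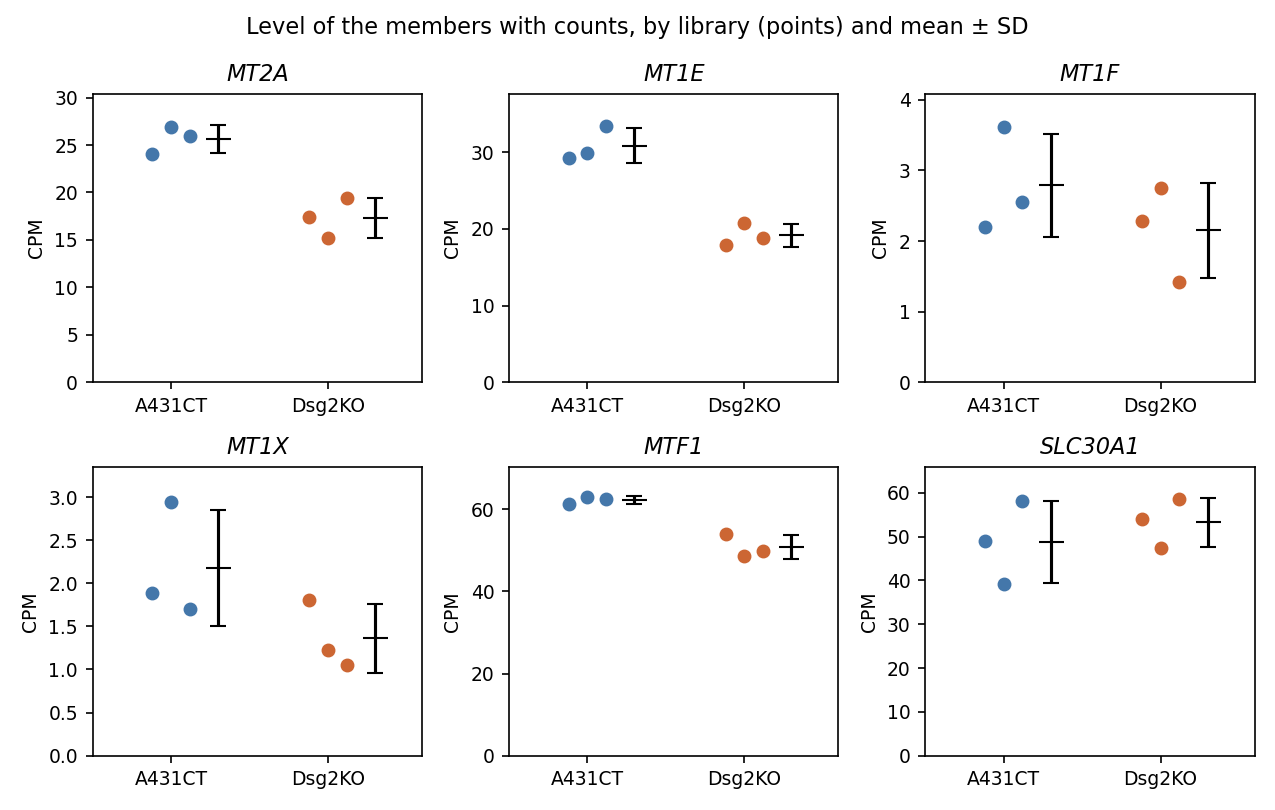
Level in CPM (y axis, starting at 0) of the 6 members with counts in each library, with 3 A431CT (blue) and 3 Dsg2KO (orange) points per gene and black marks for mean ± SD. The conditions are apart for MT2A, MT1E and MTF1 and overlap for MT1F, MT1X and SLC30A1.

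The metallothioneins are close paralogs, and how reads that match several genes were assigned is not given in the sources used here. In the annotated canonical transcripts, no window of 150 bases, the length of a read, was shared exactly between a metallothionein and another gene of the table. Metallothionein loci that the table lacks, such as MT1L and MT2P1, were not searched. Windows of 50 bases were shared for 4.54% of MT2A (with MT1G and MT1X), 6.17% of MT1E, 6.12% of MT1F and 16.6% of MT1X. The split of counts between isoforms is therefore uncertain to some degree, most of all for MT1X.

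Per length of the canonical transcript, the order of levels in A431CT cells was MT2A at 63.9 ± 3.60, MT1E at 41.4 ± 3.03, SLC30A1 at 8.27 ± 1.59, MTF1 at 7.84 ± 0.118, MT1F at 6.56 ± 1.72 and MT1X at 5.39 ± 1.66 CPM per kb (SD, n = 3). From SLC30A1 downwards, neighbours in this order differed by less than the larger of their SDs. In Dsg2KO cells the order was the same, with MT2A at 43.2 ± 5.29, MT1E at 25.7 ± 1.98, SLC30A1 at 9.04 ± 0.959, MTF1 at 6.41 ± 0.359, MT1F at 5.06 ± 1.59 and MT1X at 3.37 ± 0.987 CPM per kb, and there MTF1 and MT1F were the neighbours that differed by less. The canonical MT1E transcript has 746 bases and that of MT2A has 401, so the place of MT1E behind MT2A rests on this transcript model. Without division by length MT1E had the higher level of the pair in A431CT cells.

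MTF1, the regulator, was lower in Dsg2KO cells by a smaller amount, and so were the genes around it. Its levels were 61.2, 63.0 and 62.4 CPM in A431CT cells and 54.0, 48.6 and 49.9 CPM in Dsg2KO cells, without overlap. The means were 62.2 ± 0.939 and 50.8 ± 2.85 CPM (SD, n = 3). The log2 fold change of -0.29 (standard error 0.06) did not reach the fold change threshold. Among the 50 tested genes around it, the nearest 25 on each side, the median log2 fold change was -0.30, and 46 of the 50 were lower in Dsg2KO cells. MTF1 differed from the median of its chromosomal neighbours by 0.0062.

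SLC30A1, the zinc exporter and a target of MTF1, did not follow the metallothioneins. It had 49.0, 39.3 and 58.0 CPM in A431CT cells and 53.9, 47.3 and 58.6 CPM in Dsg2KO cells, so the libraries of the conditions overlapped across most of their range. The means were 48.8 ± 9.39 and 53.3 ± 5.65 CPM (SD, n = 3), and the log2 fold change was 0.13 (standard error 0.11). It was -0.0070 without A431CT replicate 2 and 0.27 without A431CT replicate 3, so its sign rests on the former library. The 50 neighbours of SLC30A1 had a median log2 fold change of 0.13 as well, and 41 of them were higher in Dsg2KO cells.

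The estimates of all 4 metallothioneins with counts lay below the median of their chromosomal neighbours, and MT2A was chosen for being lower. The comparison took 25 tested genes on each side of MT2A outside the metallothionein family, between positions 47154387 and 58157907 of chromosome 16. These 50 genes had a median log2 fold change of 0.0074, with 25 higher and 25 lower. Their values ran from -0.70 to 0.49, and the lowest were those of ADGRG5 at -0.70 and NOD2 at -0.50, both low in counts and with no call in edgeR. Taking off the median of the neighbours left MT2A at -0.57, MT1E at -0.70, MT1X at -0.69 and MT1F at -0.39. The log2 fold changes of MT1X and MT1F had standard errors of 0.33 and 0.30. Their libraries overlapped between the conditions, so no fall of these genes is read from their place. In a list of 20 genes from the surroundings of the cluster, 18 were tested, 9 higher and 9 lower, and 0 passed both thresholds in edgeR or DESeq2. At an unadjusted p-value under 0.05 there were 6. The stricter adjusted p-value was passed by 3 as higher and 2 as lower, and by 29.6% of all genes tested. KIFC3, a kinesin, was at 0.35, OGFOD1 at 0.29, and the nuclear pore gene NUP93 at 0.19, while the mRNA cleavage factor gene NUDT21 was at -0.17.

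**Figure D4:**
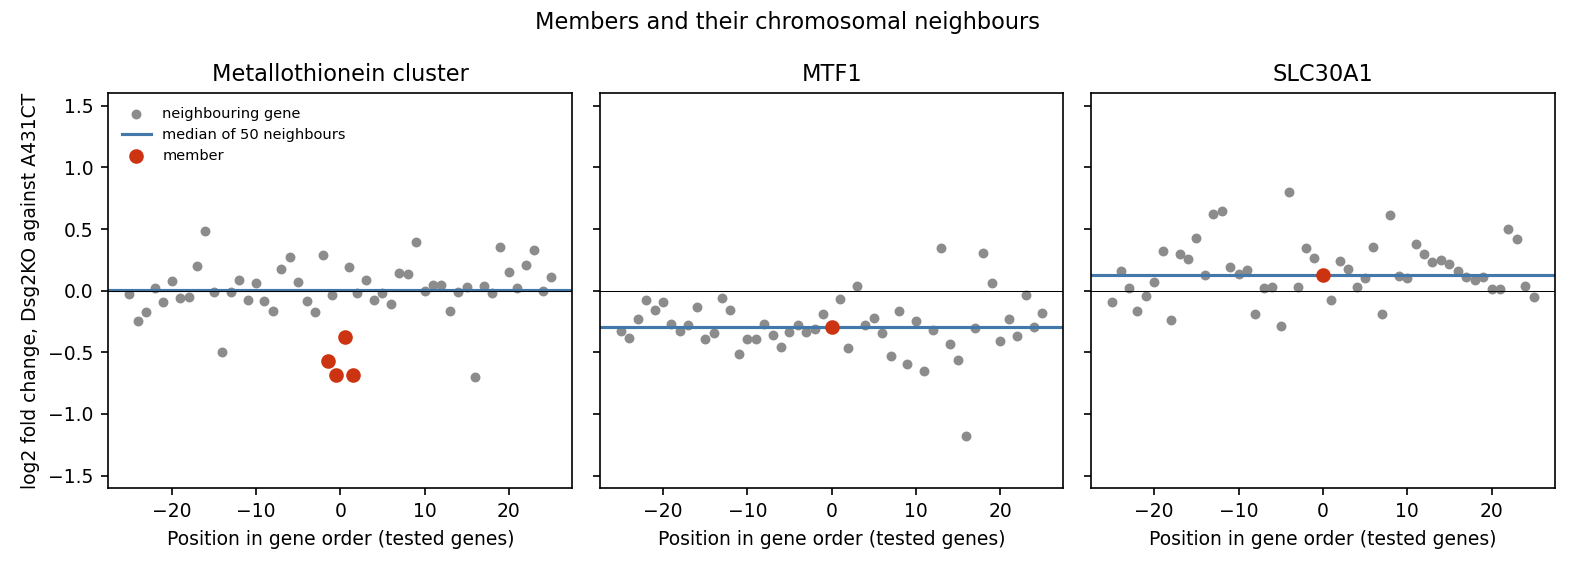
Log2 fold change in Dsg2KO against A431CT cells (y axis) of members (red) and of the 25 tested genes on each side (grey) in gene order (x axis). The blue line is the median of these neighbours. The estimates of MT2A, MT1E, MT1F and MT1X lie below the median of their neighbours (0.0074). Those of MT1F and MT1X have standard errors of 0.30 and 0.33. MTF1 and SLC30A1 lie on their medians of -0.30 and 0.13.

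MT2A was chosen for its direction against the interferon genes, and the same contrast gave both, so the values are set side by side without a test. Of 32 interferon-stimulated genes listed, 31 were tested, 28 higher and 3 lower, with a median log2 fold change of 0.49. Of these, 15 passed both thresholds as higher and 0 as lower. The largest changes were in CMPK2, a mitochondrial nucleotide kinase, at 2.27, IRF9, the DNA-binding subunit of the ISGF3 complex, at 2.15, the antiviral GTPase MX2 at 1.99, and RSAD2 (viperin) at 1.81.

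Other zinc transporters differed by small amounts. Of the 10 further zinc exporter genes listed, the SLC30 family with TMEM163, 5 were tested, 4 higher and 1 lower, and their median log2 fold change was 0.18. In edgeR and in DESeq2, 0 of them passed both thresholds, and 3 had an unadjusted p-value under 0.05 in edgeR. The stricter adjusted p-value was passed by 2 of them and by 29.6% of all genes tested. SLC30A7, which loads zinc into the Golgi and had the highest CPM of the list, was at 162 ± 9.24 CPM in A431CT and 189 ± 4.46 CPM in Dsg2KO cells (log2 fold change 0.22, adjusted p = 0.00194, edgeR), higher in 3 of 3 libraries, and its neighbours had a median of 0.17. SLC30A6 was at 0.18 (adjusted p = 0.0225, edgeR). SLC30A4 was at 0.45 with an adjusted p-value of 0.0524 in edgeR, and without Dsg2KO replicate 2 it passed both thresholds at 0.58 (adjusted p = 0.0258, edgeR, from 0.0212 to 0.285 across all alternatives).

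Among the SLC39 zinc importers 11 of 14 were tested, 5 higher and 6 lower, and their median log2 fold change was -0.03. Here too 0 passed both thresholds in edgeR or DESeq2, and 3 had an unadjusted p-value under 0.05 in edgeR, namely SLC39A14, SLC39A6 and SLC39A10. All of these also passed the stricter adjusted p-value, as did 29.6% of all genes tested. SLC39A14 (ZIP14), an importer of zinc and iron at the plasma membrane, was at 177 ± 6.16 CPM in A431CT and 218 ± 2.59 CPM in Dsg2KO cells. SLC39A14 had a log2 fold change of 0.30 (adjusted p = 4.84e-05, edgeR), beside a median of 0.17 for its neighbours. The conditions did not overlap for SLC39A14, as for 42.6% of all genes tested. SLC39A6 was at 0.19 (adjusted p = 0.0125, edgeR). SLC39A10 was at 29.0 ± 2.97 CPM in A431CT and 22.9 ± 1.12 CPM in Dsg2KO cells, again without overlap. The difference was -0.34 on the log2 scale (adjusted p = 0.00689, edgeR), while its neighbours had a median of 0.02. SLC39A9, the importer with the highest mean CPM over all 6 libraries, was at -0.08 (adjusted p = 0.201, edgeR). The SLC30 and SLC39 genes with an adjusted p-value under 0.05 were named after their values were seen.

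Copper, which metallothioneins also bind, has its own carriers, and 11 of 14 listed genes were tested, 6 higher and 5 lower, with a median log2 fold change of 0.03. ATP7B, a copper-exporting ATPase, rose from 4.96 ± 1.12 in A431CT to 7.98 ± 0.347 CPM in Dsg2KO cells. ATP7B had a log2 fold change of 0.68 (adjusted p = 0.0101, edgeR), although its chromosomal neighbours had a median of -0.19. The conditions did not overlap for ATP7B, as for 42.6% of all genes tested. COX17, a small cysteine-rich copper chaperone of mitochondria, fell from 22.5 ± 3.33 in A431CT to 15.3 ± 0.492 CPM in Dsg2KO cells. COX17 had a log2 fold change of -0.56 (adjusted p = 0.00102, edgeR), also without overlap, beside a median of 0.05 for its neighbours. Without A431CT replicate 2 the log2 fold change of COX17 was -0.44, short of the threshold. ATOX1, the chaperone that hands copper to the ATPases, was at -0.32 (adjusted p = 0.00679, edgeR). SOD1, the copper and zinc superoxide dismutase, was at 0.37 (adjusted p = 7.12e-05, edgeR). Its neighbours on chromosome 21, of which only 42 were at hand, had a median of 0.33.

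**Figure D5:**
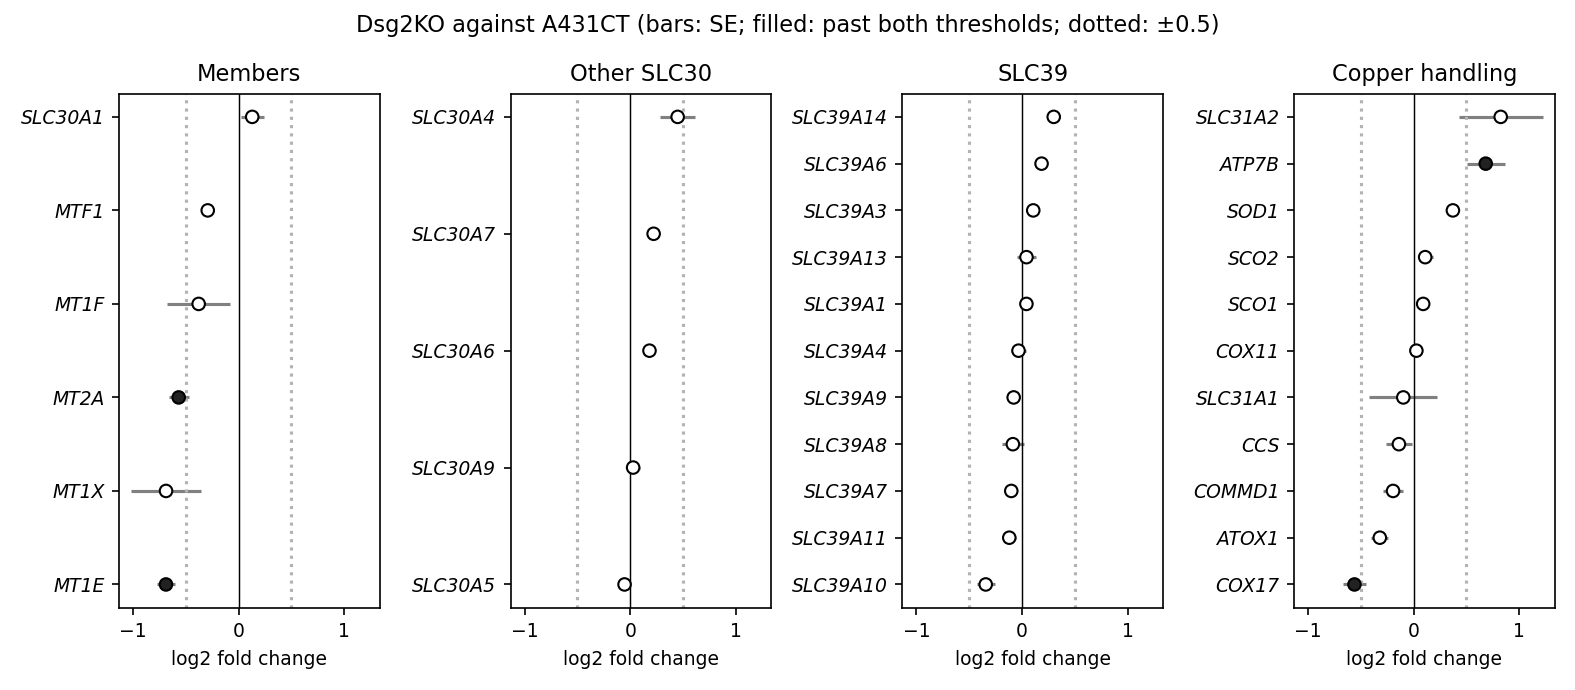
Log2 fold change in Dsg2KO against A431CT cells (x axis) with its standard error for the tested members, other SLC30 genes, SLC39 genes and copper handling genes, each ordered by value. Filled points passed both thresholds, and the dotted lines mark ±0.5. MT2A, MT1E and COX17 are filled on the lower side and ATP7B on the higher side.

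Genes that share known inducers with the metallothioneins were mixed in direction. Of 12 genes listed for glucocorticoid induction, the glucocorticoid receptor gene NR3C1 among them, 11 were tested, 7 higher and 4 lower, with a median log2 fold change of 0.11. ANGPTL4, a lipoprotein lipase inhibitor, was the gene of this list past both thresholds, at 1.66 (adjusted p = 5.94e-04, edgeR). Its level was low, with 11 to 14 counts per A431CT library and 44 to 57 per Dsg2KO library. TSC22D3 (GILZ) was at 0.45 and the EGFR inhibitor gene ERRFI1 at -0.38, the latter beside a median of -0.35 for its neighbours. Of 10 stress genes known to be induced by cadmium, 9 were tested, 3 higher and 6 lower, with a median of -0.04. SLC7A11, the cystine importer that supplies the cell with cysteine, was the gene of this list past both thresholds. It fell from 176 ± 9.06 to 124 ± 4.70 CPM (log2 fold change -0.51, adjusted p = 1.66e-06, edgeR). The conditions did not overlap for it, as for 42.6% of all genes tested. GCLM, a subunit of the enzyme for the first step of glutathione synthesis, was at 0.10 (adjusted p = 0.0473, edgeR).

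Over the 6 libraries, the genes whose log2 CPM most resembled that of MT2A were GGH, EIF4G3, NONO, ARPP19 and ELAVL1, out of 9858 tested genes with a mean of at least 10 CPM. Their Pearson coefficients with MT2A were 0.998, 0.994, 0.993, 0.993 and 0.993, given as a description since all libraries share the split by condition. Their log2 fold changes were -0.44, -0.25, -0.05, -0.13 and -0.12. Among the members the coefficients with MT2A were 0.93 for MTF1, 0.87 for MT1E, 0.67 for MT1X, 0.31 for MT1F and -0.23 for SLC30A1. With the mean of each condition taken off, they were 0.36 for MTF1, -0.36 for MT1E, 0.06 for MT1X, -0.46 for MT1F and 0.30 for SLC30A1. The high coefficient of MT1E was not seen within the conditions. With 3 libraries in each condition, these coefficients cannot show whether the genes vary together.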

How the data were processed

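Polyadenylated RNA of 3 A431CT and 3 Dsg2KO samples was sequenced as paired-end reads. In CLC Genomics Workbench (version 23) the authors trimmed these, mapped them to GRCh38 and obtained counts per gene. The deposited table holds raw counts per gene symbol, with no normalization. The annotation, strand setting and treatment of multiply matching reads are not given in the sources used here. All 6 columns were mapped to samples, and RIGI was matched by its synonym DDX58.

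Counts were analysed in R 4.3.3 with edgeR 4.0.16: TMM factors (0.990 to 1.01), filterByExpr with a minimum count of 10, quasi-likelihood F tests without covariates, and Benjamini-Hochberg adjustment over 12857 genes. Library totals of 12845719 to 16255692 counts put 3 counts at 0.183 to 0.236 CPM. The fit was tested on simulated data. A marker gene of the planned list is not reported here. The members and gene lists were chosen with earlier results of these data known. Members and all measured metallothioneins were named. So were DSG2, SLC30 and SLC39 genes past both thresholds or with the highest level, up to 4 genes of each other list with the largest change among those past the adjusted p-value, and the 5 genes most like MT2A. Positions and transcript lengths came from GENCODE version 44, which placed 12246 tested genes, and promoters from RefSeq. Comparison with 25 tested neighbours on each side (42 in all for SOD1) was chosen after the data were examined. Figures were drawn with matplotlib 3.10.9. The spread in replicate pairs exceeded counting error (chi-square of 2.64 to 4.12 per degree of freedom), and deviations of same-numbered samples correlated by -0.0027 to 0.05, so the numbers were not treated as pairs.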

Additional observations from a re-analysis of the deposited data

How the results depend on the processing

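The alternatives were RLE size factors, library totals, no low-count filter, at least 10 counts in every library, DESeq2 1.42.0, edgeR's likelihood ratio test, a replicate block, other fold change minimums and each library left out. With all 6 libraries and the minimum of 0.5, MT1E and MT2A were the members called under each of these settings, and ATP7B and COX17 the zinc and copper genes. This includes the replicate block, with 769 genes called in all against 775. The numbers do not pair the samples by the check of their deviations. With 1 library left out, from 686 to 795 genes, from 1 to 2 members and from 1 to 3 zinc and copper genes were called. MT2A was at -0.48 without Dsg2KO replicate 2, and SLC30A1 at -0.0070 without A431CT replicate 2. The minimum itself sets the next counts. Without a minimum, 3802 genes, 3 members and 9 zinc and copper genes passed, and with a minimum of 1 they were 250, 0 and 0 in edgeR, with 0 members and 0 zinc and copper genes also in DESeq2 and at an unadjusted p-value under 0.05. Between settings the log2 fold change ranged from -0.66 to -0.48 for MT2A, -0.75 to -0.63 for MT1E, -0.60 to -0.15 for MT1F, -0.94 to -0.40 for MT1X, -0.34 to -0.26 for MTF1 and -0.0070 to 0.27 for SLC30A1. Summing all metallothionein counts gave -0.62. MT1F and MT1X, which had fewer than 50 counts in every library, had the largest standard errors of the members.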
